A study of Saccharomyces cerevisiae with 12 samples.

Results

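The 6 arrays grown in YEPD, of 12 arrays in all, compared the transcripts of san1 mutant yeast cells with those of cells carrying SAN1 in that rich medium. They were chosen by their titles, which name the medium. Each array carried total RNA of both kinds of cell, 1 in each of its 2 channels. YEPD arrays 1 to 3 held the SAN1 RNA in channel 1 and the san1 RNA in channel 2, and YEPD arrays 4 to 6 held them the other way round, so that 3 arrays stood in each dye orientation. The other 6 arrays made the same comparison in the medium the labels call YC. The labels give no strain background, mating type or growth stage, do not say whether the san1 allele is a deletion, and do not say that arrays came from separate cultures. The p-values below are therefore based on how much these 6 arrays varied, and some of that variation may be technical. It is also not stated which arrays are dye swaps of 1 RNA pair, so the 6 arrays may hold fewer than 6 independent comparisons.

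San1, the product of SAN1, is a nuclear ubiquitin ligase. It recognises misfolded nuclear proteins and marks them with ubiquitin, and the proteasome then degrades them. Loss of the ligase is known for leaving such aberrant proteins in place, and the first described effects of san1 mutations included suppression of a defect in the silencing protein Sir4. YEPD is the standard medium of yeast extract, peptone and glucose.

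All values are log ratios of san1 over SAN1, so that a transcript more abundant in mutant cells has a value above 0. Base 2 was assumed for the deposited logarithms, whose base is not recorded. With natural logarithms each fold given here would be larger, but signs and tests would not change. An array held between 5836 and 6043 values, their SD lay between 0.161 and 0.206, and 5947 genes were tested. A call needs a Benjamini-Hochberg adjusted p under 0.05 in limma's fit of a mean and a dye term per gene.

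SAN1 itself stood at -3.91, -3.67, -3.94, -3.39, -3.87 and -3.89 on arrays 1 to 6. It was low in the mutant RNA on every array, and the 2 orientations overlapped. The fitted change was -3.78 (SE 0.0699, n = 6 arrays, limma adjusted p = 2.1e-07), a 13.7-fold decrease. This gene also settled which channel is the numerator of the deposited ratio, because the descriptions can be read either way, so the labels are not checked independently by its sign, and the direction of every value below rests on it. PEX7, the gene beside SAN1, encodes a receptor for import into peroxisomes. It stood at -0.07, -0.12, -0.22, -0.16, -0.29 and -0.32 on the 6 arrays, below 0 on each, and fell by 0.20 (SE 0.0319, adjusted p = 0.018). PEX7 was called in 3 of the 6 fits with an array left out (adjusted p = 0.097 without array 6). The other measured genes around SAN1 did not pass, with DOP1 at 0.03, MKC7 at -0.04 and TAF12 at 0.06.

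Of the 5947 genes, 153 were called (2.57%), of which 123 were higher in san1 (2.07%) and 30 lower (0.504%). Their median size was 0.24 and the smallest was 0.11, whereas the median change of all genes was 0.00. With base 2, 4 genes changed by 1.5-fold or more, FRE7, YPR123C, NCE103 and SAN1, and with natural logarithms 14 would. An unadjusted p under 0.05 was found for 987 genes (16.6%), and 3082 (51.8%) had a fitted change above 0, which are the shares to set beside the counts of the gene lists below. A value of 1 sign on all measured arrays was seen for 125 of the 153, against 363 of all genes tested (6.10%). The same arrays made the calls, so this contrast says nothing by itself. Just inside the threshold stood the silencing gene SIR2 (0.21, adjusted p = 0.0496), and just outside it IZH2, a membrane protein gene of zinc metabolism (-0.24, adjusted p = 0.053). The count was 95, 88 and 82 without array 1, 4 or 6 and 261 without array 5. Of the 153, 74 were called whichever single array was left out.

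Across genes, the 2 dye orientations differed more widely than the strains did. The spread of the dye terms (0.104, scaled median absolute deviation) exceeded that of the changes (0.0511), and the dye term passed for 1971 genes (33.1%), 68 of the 153 among them. After turning to a common direction, arrays of one orientation correlated across genes at 0.542 to 0.863, the highest value being that of arrays 4 and 6. Arrays of opposite orientation correlated at -0.397 to -0.0902. For 18 called genes the 2 orientations had means of opposite sign. The most extreme was YER091C-A, whose mean was 1.19 on arrays 1 to 3 and -0.26 on arrays 4 and 6. Without a dye term, 53 genes were called, all of them among the 153.

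**Figure D1:**
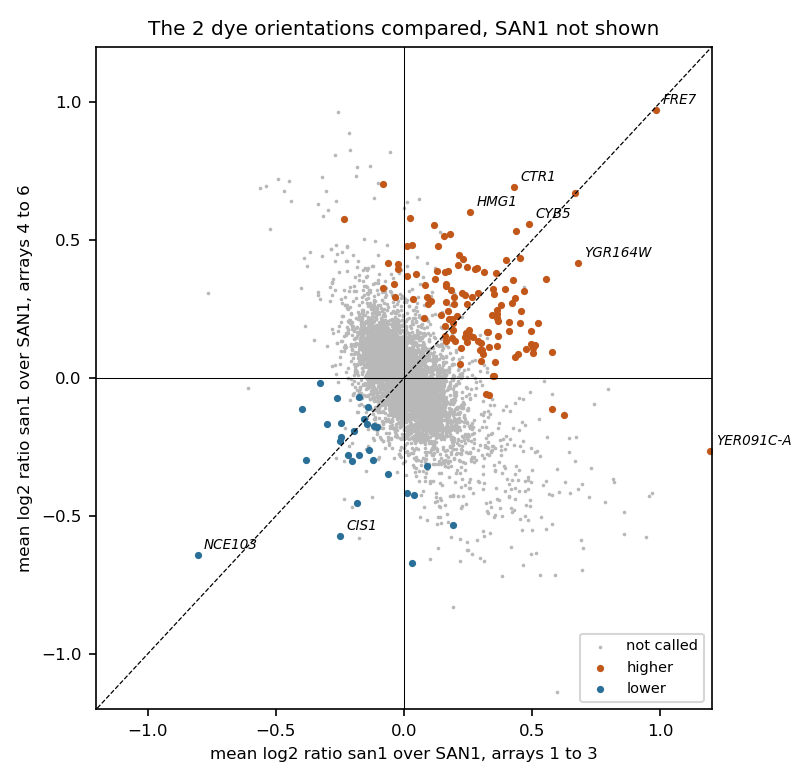
Mean log2 ratio of san1 over SAN1 of each gene on arrays 1 to 3 (x axis) against that on arrays 4 to 6 (y axis), SAN1 left out, with called genes in colour and the dashed line marking equal means. Most genes lie along the falling diagonal, FRE7 and NCE103 lie near the dashed line, and YER091C-A has means of 1.19 and -0.26.

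Copper uptake held the transcript that rose most. Yeast takes up copper by reducing it at the cell surface and carrying it in through Ctr1, and the transcription factor Mac1 switches on these genes when copper is scarce. Of 17 measured genes of copper uptake and handling, 5 rose, 0 fell and 12 did not pass, and the median of the list was 0.02. Without array 5, 8 of the 17 were called. FRE7, encoding a metalloreductase that low copper induces, stood at 0.97, 0.88, 1.10, 0.98, 0.87 and 1.06. All 6 arrays were high and the orientations were level. The fitted change was 0.98 (SE 0.0365, adjusted p = 2.2e-05), a 1.97-fold increase.

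CTR1, the high-affinity copper transporter gene, stood at 0.40, 0.49 and 0.39 on arrays 1 to 3 and at 0.65, 0.60 and 0.83 on arrays 4 to 6. Every array was above 0, and the second orientation was higher throughout. Its fitted change was 0.56 (SE 0.0349, adjusted p = 0.00029). FRE1, encoding the surface reductase for copper and iron, stood at 0.39, 0.44, 0.48, 0.48, 0.52 and 0.59, a tight range, with a fitted change of 0.49 (SE 0.026, adjusted p = 0.00017). IRC7, a cysteine desulfhydrase gene, rose by 0.34 (SE 0.0273), with arrays between 0.20 and 0.42. REE1, linked to the regulation of enolase, rose by 0.31 (SE 0.0318), but its arrays 1 to 3 stood at 0.38 to 0.60 and its arrays 4 to 6 at 0.11 to 0.14.

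The other copper genes did not pass. MAC1 itself stood at 0.02 and the second copper transporter gene CTR3 at 0.10 (adjusted p = 0.48), with single arrays of CTR3 from -0.14 to 0.35. The metallothionein copies CUP1-1 and CUP1-2, whose products bind surplus copper, were at -0.07 and -0.09, and CUP2, their activator gene, at -0.27 (adjusted p = 0.68). The copper chaperone genes ATX1, COX17 and CCS1 stood at -0.18, -0.13 and -0.01, and the copper-dependent dismutase gene SOD1 at 0.12. YPR123C, a reading frame that overlaps its neighbour CTR1, rose by 0.67 (SE 0.0379, adjusted p = 0.00021) with arrays from 0.57 to 0.84. Probes of overlapping frames can read each other's RNA unless they are made for 1 strand, which the sources used here do not give.

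The iron and zinc lists held 2 calls. Of 25 genes of the iron regulon, FRE4 rose, ARN2 fell and 23 did not pass, with a median of 0.01. FRE4, a reductase gene for iron bound to siderophores, stood at 0.41, 0.14, 0.32, 0.38, 0.26 and 0.29 (fitted 0.30, SE 0.0376, adjusted p = 0.006). ARN2, a siderophore transporter gene, stood at -0.16, -0.31, -0.26, -0.17, -0.26 and -0.21 (fitted -0.23, SE 0.028, adjusted p = 0.0049). These siderophore genes thus lay on opposite sides of 0 on all 6 arrays. Of 12 zinc response genes, 0 passed in limma, but 5 had an unadjusted p under 0.05, 2 had a fitted change above 0, and the median was -0.04.

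**Figure D2:**
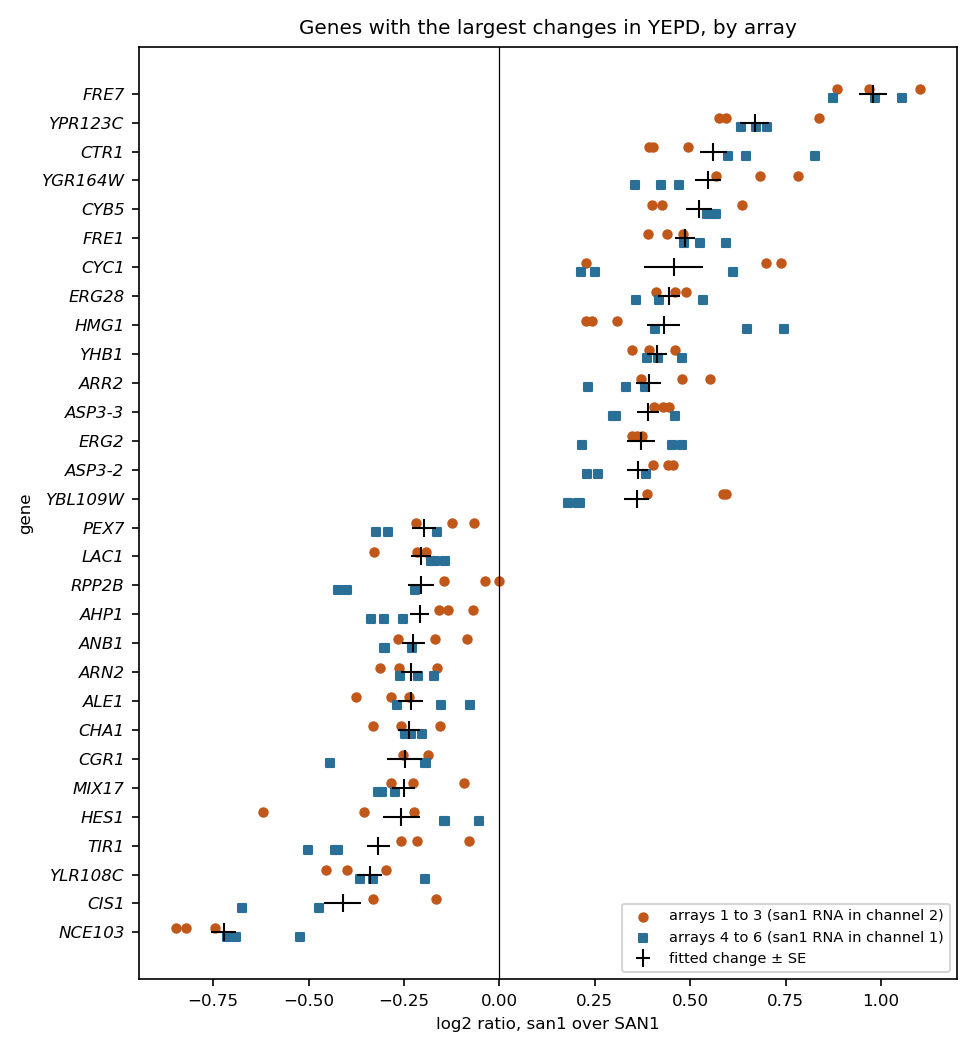
Log2 ratio of san1 over SAN1 on each of the 6 YEPD arrays for the 15 genes higher and the 15 lower with the largest changes, out of the called genes whose measured arrays all had 1 sign (SAN1 left out for scale). Circles are arrays 1 to 3, squares arrays 4 to 6, and the cross gives the fitted change with its SE. FRE7 sits between 0.87 and 1.10, NCE103 between -0.85 and -0.52, while CYC1 ranges from 0.21 to 0.74.

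Heme proteins and sterol enzymes made up the next block of higher transcripts. Hap1 is a transcription factor that responds to heme and acts on genes of respiration, sterol synthesis and oxygen defence. Of 17 genes linked to Hap1 or heme, 8 rose, 2 fell and 7 did not pass, with a median of 0.20. The called members numbered 6 without array 4 and 5 without a dye term. CYB5, the cytochrome b5 gene, stood at 0.43, 0.64, 0.40, 0.57, 0.54 and 0.56, and rose by 0.52 (SE 0.0343, adjusted p = 0.00031). YHB1, encoding the flavohemoglobin that removes nitric oxide, stood at 0.35, 0.46, 0.39, 0.42, 0.39 and 0.48, and rose by 0.41 (SE 0.026, adjusted p = 0.00029). Both were high on all arrays with no split between orientations.

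CYC1, the main cytochrome c gene, was uneven. Its arrays 1, 2 and 5 stood at 0.70, 0.74 and 0.61 and its arrays 3, 4 and 6 at 0.23, 0.21 and 0.25, so that 3 arrays were high and 3 low within both orientations. The fitted change was 0.46 (SE 0.0778, adjusted p = 0.024), and it was called in 2 of the 6 fits with an array left out, with the highest adjusted p, 0.081, without array 1. CYT1, encoding cytochrome c1, rose by 0.29 (SE 0.0506, adjusted p = 0.029), with arrays between 0.14 and 0.55, and was called in 3 of those 6 fits, with the highest adjusted p, 0.12, without array 4. HAP1 itself did not pass (-0.32, adjusted p = 0.055), and its arrays ran from -0.76 to 0.27. HYP2, the gene of the aerobic form of the translation factor eIF5A, fell on 6 of 6 arrays (-0.19, SE 0.0224, adjusted p = 0.0041).

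The respiratory chain list held no call beside these cytochromes. Of 24 respiratory chain genes, CYC1 and CYT1 rose and 22 did not pass, with a median of 0.00. Among 14 ATP synthase genes, 13 genes of the TCA cycle, 26 of glycolysis and fermentation, 20 of hexose transport and 5 of heme synthesis, 0 passed in limma, and 0, 4, 5, 6 and 0 of them had an unadjusted p under 0.05. HAP4, the activating subunit gene of the complex that drives respiratory genes, rose by 0.16 (SE 0.0235, adjusted p = 0.012), with arrays 1 to 3 between -0.02 and 0.07 and arrays 4 to 6 between 0.26 and 0.30. Its call was lost without array 1, 4 or 6 (adjusted p up to 0.067).

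Of 21 hypoxic and anaerobic genes, 3 fell, 0 rose and 18 did not pass, with a median of -0.03. TIR1, a cell wall mannoprotein gene induced by low oxygen and cold, stood at -0.08, -0.22, -0.26, -0.43, -0.50 and -0.42, lower in the second orientation, and fell by 0.32 (SE 0.0302, adjusted p = 0.0019). ANB1, the hypoxic counterpart of HYP2, fell by 0.23 (SE 0.0296, adjusted p = 0.0071) and is the neighbour of CYC1, which rose. The genes of both forms of eIF5A thus fell, and since they are close copies, a probe of one can pick up the other. HES1, encoding an oxysterol-binding protein, fell by 0.26 (SE 0.0481, adjusted p = 0.035), with array 3 at -0.62 and array 6 at -0.05, and was called in 2 of the 6 fits with an array left out (adjusted p = 0.14 without array 4).

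Ergosterol is the membrane sterol of yeast, made from acetyl-CoA through mevalonate and squalene. Of 25 genes of this path, 7 rose, ERG11 fell and 17 did not pass, with a median of 0.10. Of these 8, 5 are also among the 10 called Hap1-linked genes above, namely HMG1, ERG28, ERG2, ERG5 and ERG11. The 7 that rose belong to early and late steps. HMG1 encodes HMG-CoA reductase, which commits carbon to mevalonate, and stood at 0.31, 0.24 and 0.23 on arrays 1 to 3 and at 0.75, 0.41 and 0.65 on arrays 4 to 6. Its fitted change was 0.43 (SE 0.043, adjusted p = 0.002), and the orientations did not overlap. The second reductase gene HMG2 (0.10), the synthase gene ERG13 before it (0.22, adjusted p = 0.054) and the mevalonate enzymes ERG12 (0.12) and ERG8 (0.13) did not pass.

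In the later steps, ERG28, encoding a scaffold for the demethylation enzymes, stood at 0.46, 0.49, 0.41, 0.53, 0.36 and 0.42 (fitted 0.44, SE 0.0292, adjusted p = 0.00031). ERG2, the sterol isomerase gene, rose by 0.37 (SE 0.0368, adjusted p = 0.002), with arrays from 0.22 to 0.48. The demethylation enzyme genes ERG26 (0.19) and ERG27 (0.18), the lanosterol synthase gene ERG7 (0.19) and the desaturase gene ERG5 (0.20) rose by smaller amounts. ERG11, the lanosterol demethylase gene, stood at -0.23, -0.28, -0.28, -0.03, -0.15 and -0.03, and fell by 0.17 (SE 0.0262, adjusted p = 0.016). ERG11 is thus the single called gene of the path in the other direction. Leaving out single arrays ended the calls of ERG11, ERG27 and ERG7 (adjusted p = 0.062, 0.063 and 0.079 without array 6) and of ERG5 (0.089 without array 4). With arrays 4 and 6 averaged as 1, the called members of this list numbered 4, as they did without array 4. It was 5 without array 6 and 2 without a dye term.

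Other lipid genes were called one at a time. PRY1, encoding a secreted sterol-binding protein, rose (0.24, SE 0.0362), as did FAA1, an acyl-CoA synthetase gene (0.22, SE 0.026), and YPC1, a ceramidase gene (0.19, SE 0.0315, on 5 arrays). LAC1, a ceramide synthase gene, fell (-0.20, SE 0.0265), as did the lysophospholipid acyltransferase gene ALE1 (-0.23, SE 0.0327). The calls of PRY1 (adjusted p = 0.054 without array 6) and YPC1 (0.17 without array 1) were lost with an array left out. Of the lists behind them, 19 of 21 sterol handling genes, 31 of 33 genes of fatty acids and phospholipids and 20 of 22 sphingolipid genes did not pass.

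**Figure D3:**
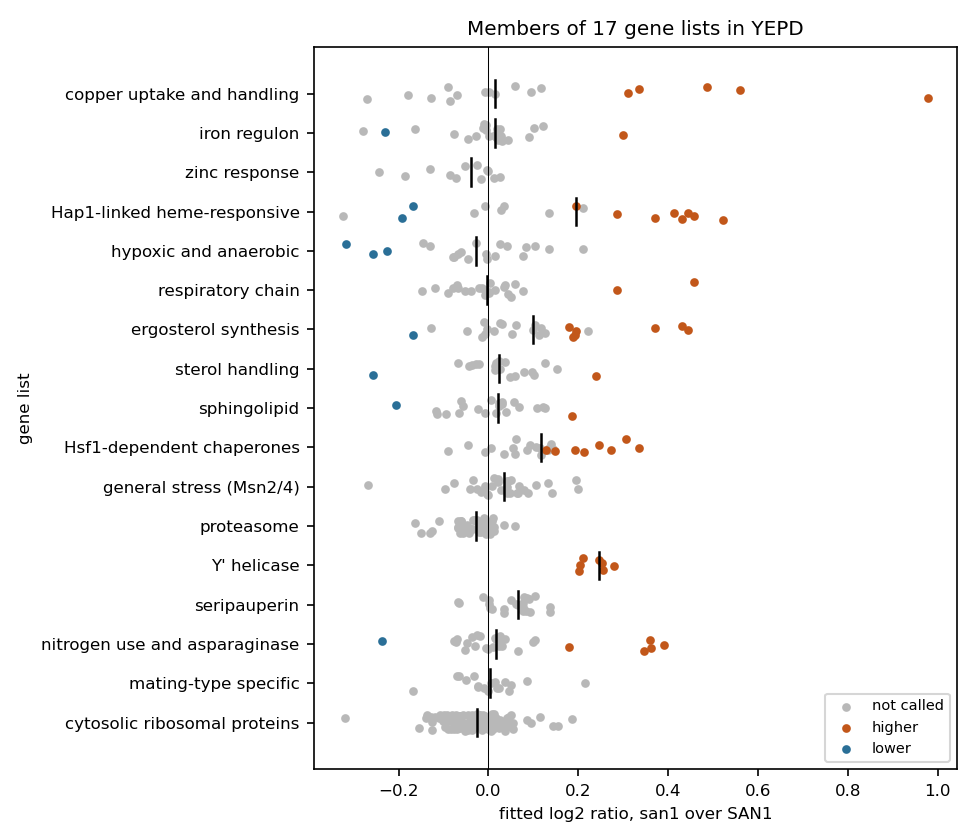
Fitted log2 ratio of san1 over SAN1 for each measured member of 17 gene lists, with called genes in colour and a black bar at the median of the list; the vertical place within a line is random. The 7 Y' helicase genes all lie between 0.20 and 0.28, and the copper list spreads from -0.27 to 0.98 around a median of 0.02.

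Heat shock factor Hsf1 drives the cytosolic chaperones that refold or hold damaged proteins. Of 25 Hsf1-dependent chaperone genes, 8 rose, 0 fell and 17 did not pass, with a median of 0.12 and 22 fitted values above 0. SSA1, an Hsp70 gene, stood at 0.18, 0.12 and 0.17 on arrays 1 to 3 and at 0.59, 0.39 and 0.56 on arrays 4 to 6 (fitted 0.34, SE 0.0316, adjusted p = 0.0018). The orientations did not overlap, and the same split was seen for its close copy SSA2 (fitted 0.27), for the co-chaperone gene STI1 and for the Hsp90 gene HSP82. HSP82 stood at -0.02, 0.10 and -0.04 on the first orientation and at 0.52, 0.31 and 0.61 on the second (fitted 0.24, SE 0.0415, adjusted p = 0.024).

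HSP26, a small heat shock protein gene, was higher in the other orientation, at 0.31, 0.44 and 0.49 against 0.15, 0.29 and 0.17 (fitted 0.31, SE 0.033, adjusted p = 0.0028). AHA1, which encodes an activator of Hsp90, rose by 0.15 with arrays from 0.09 to 0.21 in both. The Hsp90 gene HSC82, a close copy of HSP82, rose by 0.21, and SSA4, the inducible Hsp70 gene, by 0.13 with arrays 1 to 3 at -0.08 to -0.01. Probes of close copies, such as SSA1 and SSA2 or HSP82 and HSC82, can read each other. The 8 calls of this list may therefore not be 8 independent readings, which was not tested. The count depends on the fit. It was 1 without a dye term, 4 with arrays 4 and 6 averaged, between 3 and 10 with single arrays left out, and 0 with ordinary least squares. SSA1, SSA2 and HSP26 were called whichever array was left out. The highest adjusted p was 0.054 for STI1, 0.13 for HSC82 and 0.22 for SSA4 without array 6, and 0.11 for AHA1 and 0.10 for HSP82 without array 4. The other 17 ranged from -0.09 (BTN2, a factor of protein sorting and aggregate handling) to 0.14 (HSP60, the mitochondrial chaperonin).

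The lists of protein quality control outside the chaperones held no call. UBX6, which is in none of them and is described at the end, was called higher (0.17). Of 46 proteasome genes, 0 passed in limma, 6 had an unadjusted p under 0.05, 10 had a fitted change above 0, and the median was -0.03. Of 28 genes of other quality-control ubiquitin ligases and their partner enzymes, 0 passed, 1 had an unadjusted p under 0.05, 20 had a fitted change above 0, and the median was 0.03. The same holds for 18 genes of the endoplasmic reticulum and its unfolded protein response (0 passed, 3 with an unadjusted p under 0.05, 10 above 0, median 0.01) and for 32 general stress genes of Msn2 and Msn4 (0 passed, 6 with an unadjusted p under 0.05, 21 above 0, median 0.03). Among 14 genes of silencing and of proteins reported as San1 substrates, SIR2 alone passed. SIR2, encoding the histone deacetylase of silent chromatin, stood at 0.08, 0.27, 0.19, 0.21 and 0.33 on the 5 arrays that measured it (fitted 0.21, SE 0.039, adjusted p = 0.0496), and lost its call whichever single array was left out. SIR4 (0.03), SIR3 (0.04) and CDC13, a telomere protein gene (0.08), did not pass. The frame YDL041W, next to SIR2 by systematic name, rose by 0.27 (SE 0.0376, adjusted p = 0.0099). Whether the probes of SIR2 and YDL041W read each other's RNA was not tested.

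Transcripts from the outermost places of chromosomes were often higher. Yeast chromosomes end in repeats, many of them with Y' elements that encode a helicase, and genes close to the ends are subject to silencing by the Sir proteins. All 7 measured Y' helicase genes named YRF1 rose, with a median of 0.25. YRF1-1 stood at 0.25, 0.27, 0.28, 0.33, 0.25 and 0.30 (fitted 0.28, SE 0.0232, adjusted p = 0.00086). YRF1-2 was lower on arrays 1 to 3 (0.12 to 0.22) than on arrays 4 to 6 (0.33 to 0.36), and YRF1-6 was higher on arrays 1 to 3 (0.24 to 0.31) than on arrays 4 to 6 (0.13 to 0.17). The lowest fitted value was 0.20, for YRF1-4. These genes are near-identical copies, so the 7 values are not 7 independent readings. With ordinary least squares, 4 of them were called. YRF1-5 lost its call without array 1, 2, 4 or 6 (adjusted p up to 0.061), and the other 6 were called whichever array was left out.

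Counted by gene order from each chromosome end, 23 of 55 genes in the outermost 2 places were higher (41.8%) with a median of 0.14, and 10 of 56 in places 3 and 4 (17.9%) with a median of 0.06. In places 5 to 10 the count was 4 of 170 (2.35%), in places 11 to 20 it was 4 of 277 (1.44%), and farther in it was 64 of 4922 (1.3%). The share of all genes that rose was 2.07%. Of all 281 measured genes in the outermost 10 places, 37 rose, ARN2 and CHA1 fell and 242 did not pass, with a median of 0.04. Without the 7 YRF1 genes alone, 30 of 274 rose. Many of the 30 are uncharacterised frames that may share sequence with Y' elements, and how much of the count that makes was not tested.

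Runs of adjacent higher genes were found at several ends. On the left arm of chromosome VI, the 6 frames from YFL063W to YFL068W rose by 0.21 to 0.33. YFL067W, the second from the end, stood at 0.09, 0.08 and 0.22 on arrays 1 to 3 and at 0.53, 0.40 and 0.52 on arrays 4 to 6. The frames YBL111C (0.35), YBL112C (0.33) and YBL113C (0.25) rose at another end. Near the end of chromosome XVI, the arsenate reductase gene ARR2 rose by 0.39 (SE 0.0325, adjusted p = 0.00086) and its neighbour ARR3, the arsenite exporter gene, by 0.35 (SE 0.0389, adjusted p = 0.006, on 5 arrays). IRC7 of the copper list lies in the second place from its end, and the sorbitol dehydrogenase gene SOR2, a close copy of SOR1, in the third (0.24, SE 0.0312, on 5 arrays). Without array 4 the call of SOR2 was lost (adjusted p = 0.10), and without array 6 that of YBL111C (0.073). Other families of chromosome ends held 1 call. Of 23 seripauperin genes, 0 passed in limma, but 9 had an unadjusted p under 0.05 and 20 had a fitted change above 0 (median 0.07). Of 19 COS and DUP genes, COS8 rose (0.15, SE 0.0271, adjusted p = 0.16 without array 6) and 18 did not pass, 14 of the 19 were above 0, and the median was 0.08.

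**Figure D4:**
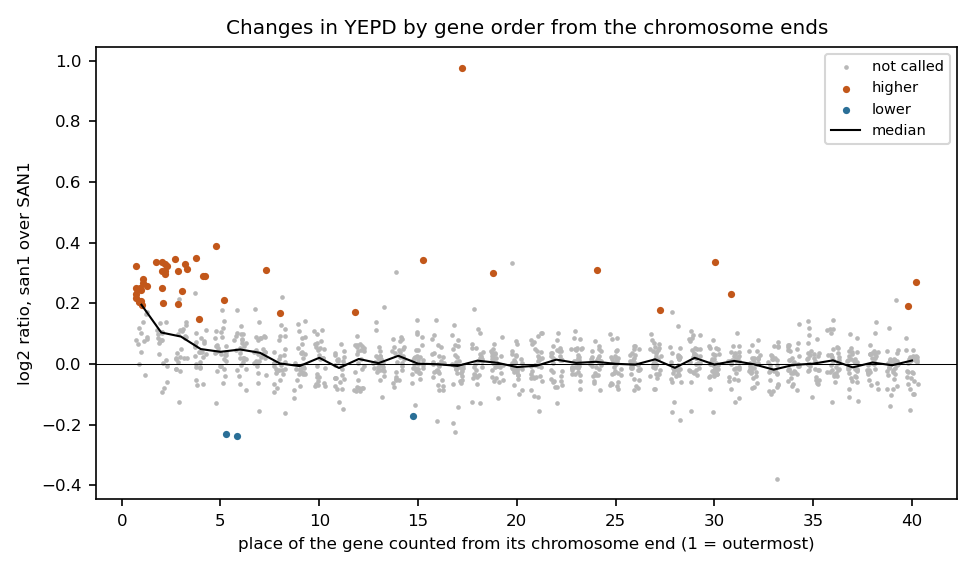
Fitted log2 ratio of san1 over SAN1 of each gene against its place from the chromosome end by gene order (1 is outermost, first 40 places, points spread slightly within a place), with called genes in colour and the black line joining the medians of the places. Higher genes crowd into places 1 to 4, and FRE7 at 0.98 lies in place 17.

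Some calls in the interior lay beside each other as well. Over all positions, 152 called genes had a measured neighbour by systematic name. Of these, 54 had a called neighbour (35.5%), against 3.44% of uncalled genes. Beyond the outermost 10 places it was 18 of 95, and no share of uncalled genes was taken there. The 18 include repeated ASP3 copies, CTR1 and SSA1 with frames that overlap them, SAN1 with PEX7, and CYC1 with ANB1, which moved in opposite directions. The longest such run is the asparaginase cluster of chromosome XII. Its ASP3 genes encode the cell wall asparaginase that nitrogen starvation induces and are repeated copies whose probes can read each other. ASP3-1, ASP3-2, ASP3-3 and ASP3-4 rose by 0.36, 0.36, 0.39 and 0.35, and the frames between and beside them, YLR156W, YLR159W and YLR161W, by 0.33, 0.35 and 0.18. ASP3-3 stood at 0.40, 0.44, 0.43, 0.46, 0.30 and 0.31, level over the arrays but for the last 2. In the other direction, YLR108C (-0.34, SE 0.0328, adjusted p = 0.0019) and the peroxiredoxin gene AHP1 (-0.21, SE 0.0249, adjusted p = 0.0044) lie side by side and both fell. YAL004W, which overlaps SSA1 on the other strand, rose by 0.34 as SSA1 did, but was called in 1 of the 6 fits with an array left out (adjusted p = 0.098 without array 6).

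The rest of nitrogen and amino acid metabolism gave single calls. In the list of 29 nitrogen and asparaginase genes, the 4 ASP3 genes and CAR2, the ornithine transaminase gene, rose, CHA1 fell, and 23 did not pass (median 0.02). CHA1, encoding the serine and threonine deaminase, stood at -0.26, -0.16, -0.33, -0.25, -0.23 and -0.20 (fitted -0.24, SE 0.0283, adjusted p = 0.0044). CAR2 rose by 0.18 (SE 0.0348), from 0.23 to 0.48 on arrays 1 to 3 and from -0.04 to 0.04 on arrays 4 to 6. PTR2, the transporter gene for small peptides, stood at 0.30, 0.22, 0.34, 0.42, 0.35 and 0.42 (fitted 0.34, SE 0.0261, adjusted p = 0.00063) and was the single call among 20 amino acid and peptide permease genes. SAM2, for S-adenosylmethionine synthesis (0.19), was the single call of 28 methionine and sulfate genes, and THI7, the thiamine transporter gene (0.16), that of 23 thiamine and vitamin B6 genes. Of 58 amino acid biosynthesis genes, 0 passed in limma and 6 had an unadjusted p under 0.05. Without array 6 the calls of CAR2, SAM2 and THI7 were lost (adjusted p = 0.18, 0.14 and 0.17).

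NCE103 was the transcript that fell most after SAN1. It encodes carbonic anhydrase, which supplies bicarbonate to carboxylating enzymes. It stood at -0.85, -0.82, -0.74, -0.71, -0.52 and -0.69, low on all arrays, and fell by 0.72 (SE 0.0324, adjusted p = 5.8e-05), a 1.65-fold decrease. Of 8 genes of bicarbonate and carboxylation, PYC1 was the other call, a pyruvate carboxylase gene that uses bicarbonate. PYC1 stood at -0.27, -0.45 and -0.26 on arrays 1 to 3 and at -0.05, -0.00 and -0.01 on arrays 4 to 6 (fitted -0.17, SE 0.0318, adjusted p = 0.032), and was called in 2 of the 6 fits with an array left out (adjusted p = 0.14 without array 4). The remaining 6 did not pass, and the median was 0.00.

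Among other lower transcripts, CIS1 was measured on 4 arrays, at -0.17, -0.33, -0.67 and -0.47 on arrays 1, 3, 4 and 6 (fitted -0.41, SE 0.049, adjusted p = 0.014). Its call was lost without array 3 or 4 (adjusted p up to 0.074) and without a dye term. The oxidoreductase gene OYE2 (-0.12) joined AHP1 as the lower calls of 32 antioxidant genes, of which YHB1 rose. OYE2 was called in 0 of the 6 fits with an array left out. PDR5, the drug export pump gene, fell by 0.12 (adjusted p = 0.047) as the single call of 21 multidrug resistance genes, and was not called without array 4 (adjusted p = 0.18). RPP2B, a ribosomal stalk protein gene, fell by 0.21 (SE 0.0349), with array 3 at -0.00 and array 4 at -0.42, and was called in 1 of those 6 fits. MIX17, a mitochondrial intermembrane protein gene, fell by 0.25 (SE 0.0297) with arrays from -0.32 to -0.09.

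The large growth gene sets, as listed here, held no call. They leave out RPP2B (-0.21) and the ribosome biogenesis gene CGR1 (-0.25, limma adjusted p = 0.042), which were both called lower. Of 130 cytosolic ribosomal protein genes, 0 passed in limma and 20 had an unadjusted p under 0.05, of 66 mitochondrial ones 0 and 7, and of 74 ribosome biogenesis genes 0 and 7. Most members lay below 0, with 36 of 130, 20 of 66 and 14 of 74 above it, and the medians were -0.03, -0.02 and -0.04. Among 11 histone, 21 purine and one-carbon and 29 phosphate response genes, 0 passed in limma, with 1, 1 and 6 under an unadjusted p of 0.05. CLB1, a mitotic cyclin gene, rose by 0.19 (SE 0.0247, adjusted p = 0.0066) as the single call of 33 cell cycle genes. Of 18 mating-type specific genes, 0 passed, 3 had an unadjusted p under 0.05 and the median was 0.00. Of 8 genes often used as strain markers, 0 passed and 0 had an unadjusted p under 0.05. The largest value among the markers was LEU2 at 0.13 (SE 0.157, adjusted p = 0.73). Its orientations disagreed, with means of -0.45 on arrays 1 to 3 and 0.71 on arrays 4 to 6, and array 6 stood at 1.52.

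The arrays in YC show which of the YEPD calls are shared and which differ. YC arrays 1 to 3 have descriptions that mention YEPD, but were taken as YC from their titles and source names. In YC, 944 of 6101 genes were called (15.5%), 525 higher (8.61%) and 419 lower (6.87%). Of 150 YEPD calls measured there, 123 had the same sign, 70 were called in the same direction (46.7%), 2 in the other, and 78 were not called. The 70 made up 7.63% of the 918 YC calls measured in YEPD. The 120 higher genes had a median of 0.25 in YEPD and 0.17 in YC, the 30 lower genes medians of -0.21 and -0.18. The genes were chosen by their YEPD values, so the smaller medians in YC say nothing by themselves.

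The difference itself was tested in a fit of all 12 arrays, which called 576 of 5890 genes (9.78%), 252 lower in YC (4.28%) and 324 higher (5.50%). Leaving out 1 array gave between 169 (YEPD array 4) and 800 (YC array 1). Of 150 YEPD calls, 28 were called. Among the higher genes, 21 were lower in YC and 4 were higher there, and among the lower genes, 2 were higher in YC and 1 was lower. The YEPD values that chose these genes also enter the difference, so this split says nothing by itself. Copper uptake genes led. FRE7 was at -0.15 in YC (adjusted p = 0.063) against 0.98 in YEPD (difference -1.14, SE 0.0586, adjusted p = 1.6e-06). CTR1 fell in YC by 0.20 (adjusted p = 0.03; difference -0.78, SE 0.0681, adjusted p = 0.0002), and FRE1 fell there by 0.28 (adjusted p = 0.018; difference -0.76, SE 0.0616, adjusted p = 5.2e-05). They are the 2 genes called in opposite directions in the media. IRC7 differed too (-0.06 in YC, difference -0.40, adjusted p = 0.0053), as did the reductase gene FRE4 (-0.08 in YC, difference -0.38, adjusted p = 0.0034). REE1 stood at 0.01 in YC, and its difference was not called (-0.30, adjusted p = 0.069).

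Of the called chaperone genes, HSP26 and SSA4 went the other way. HSP26 was at 0.96 in YC (difference 0.66, SE 0.0877, adjusted p = 0.0031) and SSA4 at 0.53 (difference 0.40, SE 0.0605, adjusted p = 0.0042). For SSA1, SSA2, STI1, AHA1, HSP82 and HSC82 no difference was called (differences 0.02 to 0.20, adjusted p = 0.098 to 0.87). In the whole list of 25 chaperone genes, 6 were higher in YC than in YEPD and 0 lower. YHB1 was at 0.69 (difference 0.27) and its neighbour MIC26, a gene of mitochondrial membrane organisation, at 0.36 (difference 0.23). The 7 Y' helicase genes rose in YC as well, with a median of 0.30, and among their differences between media that of YRF1-6 came nearest to a call (difference 0.13, adjusted p = 0.052). In the outermost 10 places of the chromosome ends, 28 of 274 genes were lower in YC than in YEPD and 4 higher. ARR3 was one of them, at -0.05 in YC (difference -0.41, SE 0.0638, adjusted p = 0.006). For the heme and sterol genes CYB5 (0.78 in YC, difference adjusted p = 0.06), CYC1 (0.67, adjusted p = 0.19) and ERG28 (0.53, adjusted p = 0.41) no difference was called. In the Hap1-linked list, YHB1 and the catalase gene CTT1 (0.03 in YEPD and 0.49 in YC) were higher in YC than in YEPD. Among ergosterol genes, the same held for IDI1, ERG20 and ERG6, which were not called in YEPD, by 0.29, 0.23 and 0.22. NCE103 was at -0.54 in YC (difference 0.19, SE 0.14, adjusted p = 0.41).

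**Figure D5:**
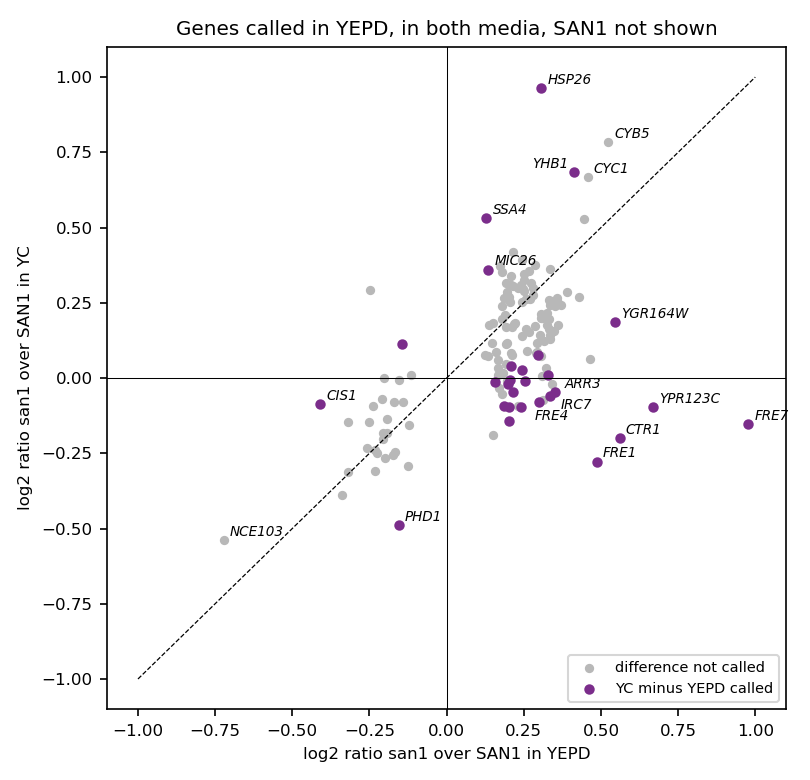
Fitted log2 ratio of san1 over SAN1 in YEPD (x axis) and in YC (y axis) for the 149 genes called in YEPD and measured in YC, SAN1 left out, with purple for genes whose difference between media was called and the dashed line marking equal changes. FRE7, CTR1, FRE1 and YPR123C lie right of 0 and below it, and HSP26 at 0.96 lies far above the line.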

How the data were processed

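Direct comparisons of san1 and SAN1 RNA on 2-channel arrays were analysed for the 6 YEPD arrays, with the 6 YC arrays for contrast. Per array and spot, the authors deposited 1 log ratio, read as log2 of channel 2 over channel 1 from the SAN1 row. For the scanner, background correction, normalization, filters and log base, nothing is given in the sources used here. The authors' values were already centred, with medians of the YEPD columns between -0.0029 and 0.0011. Of 6204 table entries, 5704 matched a locus tag and 42 a synonym of RefSeq's R64 gene table, used for names and gene order, and 458 kept the file's name. Entries of the same gene were averaged (27 genes, 6177 left).

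Arrays 4 to 6 had their sign turned and each array was centred on its median. Genes needed at least 2 values in each orientation, which left 5947 and removed 230. 5095 genes had all 6 values, 785 had 5 and 67 had 4, and each was fitted on its own values. limma 3.58.1 in R 4.3.3 fitted a mean and a dye term per gene, with moderated variances (prior degrees of freedom 3.67, residual 4) and two-sided tests adjusted over all genes. YC was fitted alike. The difference between media came from all 12 arrays, fitted with 1 dye term and separate means for the media. The fit was tested on simulated data with independent noise on each array, a setting that does not cover arrays sharing RNA. The number of arrays limits the precision, and the signal behind each ratio is unknown.

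The genes and lists were chosen with earlier results of these data known. Ribosomal lists were made by symbol pattern and chromosome ends by gene order. Named genes are SAN1, the 15 higher and 15 lower called genes of largest change whose measured arrays all had 1 sign, up to 4 called members of each list with the lowest p, all called members of a list with 5 or fewer, and genes next to a called gene. The remaining genes named, among them HAP1, MAC1, CTR3, IZH2, the other members given by value in the copper, sterol and chaperone lists and the frames of chromosome ends, were chosen after their values were seen.

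Alternatives changed the centring, scaling, dye term, arrays in the fit, averaging of arrays, filter, variance model and handling of repeated entries, and left out each array. Same-numbered YEPD and YC arrays correlated at -0.341 to 0.224 in their deviations. Such values cannot decide whether the array numbers pair the media, because paired arrays need not share their deviations.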

Additional observations from a re-analysis of the deposited data

Results flagged for a closer look

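On YEPD array 4, CGR1, a ribosome biogenesis gene, stood at -0.44, apart from its other arrays at -0.25 to -0.19. It was 1 of 94 genes examined in this way, a rule by which chance marks about 1 in 20. CGR1 was not called when array 3 was left out (adjusted p = 0.19).

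The change in san1 cells differed between the media, by limma's test of the difference, for 18 of the 92 named genes tested. Over all genes tested it differed for 576 of 5890 (9.78%). The named genes were chosen largely by their YEPD values, which also enter the difference, so the count of 18 says nothing by itself. Of the 18, 11 rose in YEPD and had a lower value in YC. The difference, YC minus YEPD on the log2 scale, was -1.14 for FRE7, -0.78 for CTR1, -0.78 for the overlapping frame YPR123C, -0.76 for FRE1, -0.40 for IRC7 and -0.38 for FRE4. The arsenite exporter gene ARR3 differed by -0.41, the frame YGR164W by -0.38, the aminopeptidase gene AAP1 by -0.34, SOR2 by -0.32 and THI7 by -0.17. PHD1, encoding a regulator of filamentous growth, was below 0 in both media and lower in YC by -0.33. The YC value was higher for HSP26 (0.66), SSA4 (0.40), CIS1 (0.32), YHB1 (0.27), the spliceosome gene SMB1 (0.26) and MIC26 (0.23). FRE7, FRE1, CTR1, YPR123C, IRC7, FRE4, HSP26, SSA4, AAP1 and PHD1 were called for the difference in all 15 alternatives run. CIS1 was called in 7 of 15 and THI7 in 5 of 15.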

How the results depend on the processing

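Among the 153 genes called in YEPD, 29 were called in all alternatives that measured them, FRE7, FRE1, CTR1, CYB5, YHB1, ERG28, NCE103, SAN1 and the 4 ASP3 genes among them, and no named change was reversed. The called genes numbered 53 without a dye term (44 higher, 9 lower), 86 with arrays 4 and 6 averaged (70 higher, 16 lower) and 43 with ordinary least squares (36 higher, 7 lower). With all 12 arrays in the fit, 19 were lower. With arrays 1 and 4, 2 and 5, and 3 and 6 averaged as a replicate block, 106 were called, 15 of them lower. Deviations of the YEPD arrays correlated at 0.399, 0.251 and 0.0424 for these pairs. For the other pairs of opposite orientation they correlated at -0.326 to 0.0668. Whether the arrays of a pair are dye swaps of 1 RNA pair was not tested. Leaving out 1 array gave 82 to 261 called genes, 67 to 197 higher and 14 to 64 lower, and for SAN1 a change of -3.86 to -3.73. For the difference between media, leaving out 1 array gave 169 to 800 called genes. The array number as a replicate block across media left 49, against 576 without it, and whether the numbers pair the arrays is not known. Why the counts moved was not tested, beyond fewer arrays or degrees of freedom. Small changes near the threshold, such as those of SIR2, PDR5 and OYE2, were called in 0 of the 6 fits with an array left out.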

Other observations

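Several higher transcripts belong to none of the gene lists. WSC4, a cell wall stress sensor gene, stood at 0.22, 0.20, 0.44, 0.39 and 0.40 on the 5 arrays that measured it (fitted 0.31, SE 0.0261, limma adjusted p = 0.0019), higher on arrays 4 to 6. SCM4, a mitochondrial outer membrane protein gene, stood at 0.36, 0.36, 0.39, 0.23, 0.22 and 0.16 (fitted 0.29, SE 0.0229, adjusted p = 0.00074). BNA1, of NAD synthesis from tryptophan, stood at 0.37, 0.48 and 0.49 on arrays 1 to 3 and at 0.07, 0.12 and 0.07 on arrays 4 to 6 (fitted 0.27, SE 0.0258, adjusted p = 0.0019). UBX6, encoding a protein with a UBX domain that binds Cdc48, a factor that extracts ubiquitin-marked proteins, rose by 0.17 (SE 0.0249, adjusted p = 0.011), with arrays from 0.12 to 0.22, and was at 0.37 in YC. Its call was lost in 6 of 18 alternatives, among them those without array 4 or 6 (adjusted p up to 0.063).

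AAP1, an aminopeptidase gene, was the most even of these, at 0.18, 0.15, 0.24, 0.23, 0.21 and 0.20 (fitted 0.20, SE 0.0234, adjusted p = 0.0041), and stood at -0.14 in YC (adjusted p = 0.065). Genes whose orientations disagreed included the transcription factor gene GAT4, with means of 0.58 and -0.11 (fitted 0.23, adjusted p = 0.045), and CYR1, the adenylate cyclase gene, with means of -0.06 and 0.42 (fitted 0.18, adjusted p = 0.038). They were called in 0 and 1 of the 6 fits with an array left out.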
